A study of Mus musculus with 4 samples.

Results

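Runx2 occupancy was compared between proliferating MC3T3-E1 preosteoblasts (day 0) and the same cells after 28 days of osteogenic differentiation, when they mineralize (day 28). Peaks of the day 0 and the day 28 list that shared at least 1 bp were merged, which gave 44629 regions from the 25457 peaks of day 0 and the 40330 peaks of day 28. These lists come from 2 of the 4 samples of the series, whose 3 lists hold 126383 peaks in all. Each region was classed as day 0 only, both or day 28 only. The day 9 list was left out of every step.

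The cells were MC3T3-E1 subclone 4, a clonal line from the calvaria of C57BL/6 mice, at passages 28 to 31. At day 0 they were proliferating, and until day 28 they were kept in a differentiation medium that held ascorbic acid (280 μM) and beta-glycerophosphate (10 mM). Chromatin was precipitated with the Runx2 antibody M-70, and 2 biological replicate libraries per time point were pooled before peaks were called against input DNA of day 9 cells. Each time point therefore has 1 list, no difference between the lists has a replicate error, and no test was made between them. A line that is 1 clone stands for 1 genotype, and the input came from neither of the stages compared. Occupancy does not measure transcripts, so the labelled stages were not checked against expression here.

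Runx2 is the runt-domain transcription factor that commits mesenchymal cells to the osteoblast lineage. It binds DNA as a heterodimer with Cbfb at a core sequence, TGTGGT, and acts as an activator or a repressor depending on its partners. In osteoblasts its best known targets are genes of the bone matrix, such as osteocalcin, and it is also known to restrain the growth of preosteoblasts.

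Of the 44629 regions, 19656 were day 28 only (44.0%, 95% interval 43.6% to 44.5%), 20027 were found at both times (44.9%, 44.4% to 45.3%) and 4946 were day 0 only (11.1%, 10.8% to 11.4%). Day 0 peaks thus mostly had a counterpart at day 28 (20511 of 25457, 80.6%), and about as many day 28 peaks had none at day 0 as had one (20674 of 40330 with a counterpart, 51.3%). Intervals here and below are exact binomial for shares and distribution-free for medians. They cover counting error only, and regions are not replicates of a time point. Absence from a list means only that no peak passed the authors' p-value of 1e-10 there, and the lists carry no read counts, so they do not give the depth behind a missing peak. The study's supplement lists more raw reads for the day 0 pool than for the day 28 pool, and depth and stage cannot be told apart here.

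The excess of day 28 only over day 0 only regions depended on the length of the lists. When as many top-scoring day 28 peaks were taken as the day 0 list holds, 8241 regions were day 0 only (24.7%) and 8425 were day 28 only (25.2%), with 16742 at both. The class sizes are therefore given as counts of the deposited lists and not as amounts of binding.

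Whether a peak had a counterpart followed its rank. The deposited score grows with the significance that the peak caller MACS gave a peak. Each peak was given its percentile among the scores of its list, and scores of different lists were never compared. In the lowest decile of the day 0 list 54.6% of the peaks had a counterpart, and in the highest decile 98.6%. The share for day 28 peaks was 18.3% in the lowest decile and 93.2% in the highest. Even so, 276 of the 4033 peaks of the highest day 28 decile had no counterpart at day 0 (6.84%). Of the 2546 peaks of the highest day 0 decile, 35 had none at day 28 (1.375%). Day 0 only peaks had a median percentile of 24.3 (23.51 to 25.02) in their list, and day 28 only peaks 31.7 (31.2 to 32.2).

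**Figure D1:**
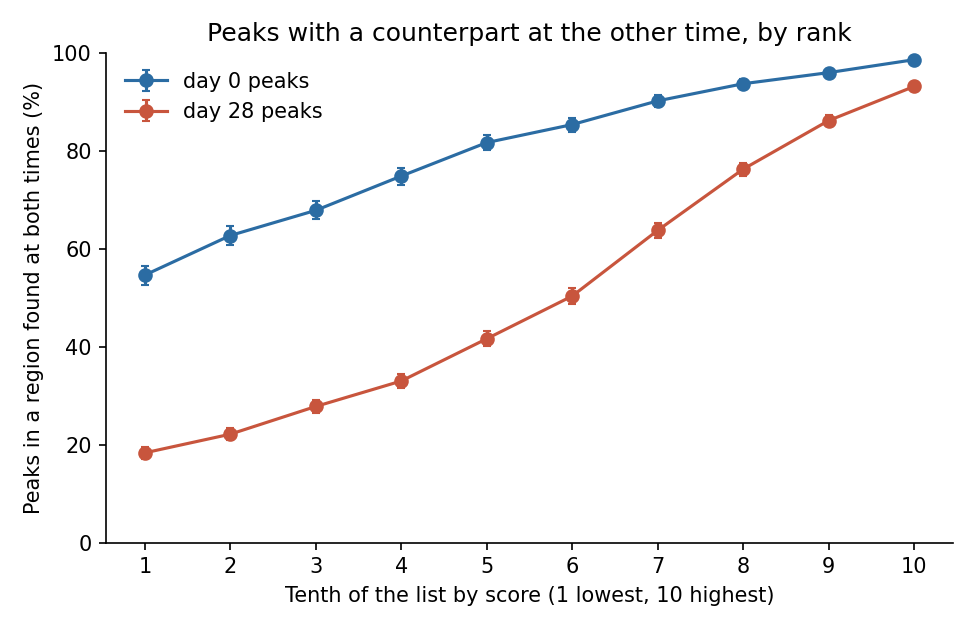
Share of peaks in a region found at both times (y, %) by decile of the list (x, 1 lowest and 10 highest scores) for the day 0 and the day 28 list, with exact 95% intervals. Both lines climb, the day 0 line between 54.6% and 98.6% and the day 28 line between 18.3% and 93.2%.

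The sequences shown here reach 50 bp either side of the centre of the highest-ranked peak of a region and were read from the plus strand of NCBIM37 (mm9). They show the motifs that the comparison turns on. Capitals mark the Runx core TGTGGT, the AP-1 motif TGANTCA (N is any base) or the TEAD motif GGAATG on either strand, except in the last window, where the Sp/KLF motif GGGCGG was searched and none was found. The first 3 windows are day 28 only regions, from the osteocalcin gene Bglap2 and from regions nearest Tomm20 and Stk38l, all 3 tied at the top of the day 28 scores and with the Runx core.
Bglap2 (chr3:88182719-88182819): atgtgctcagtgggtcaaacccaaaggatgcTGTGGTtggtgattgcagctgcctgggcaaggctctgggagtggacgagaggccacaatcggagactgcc
Tomm20 (chr8:129371583-129371683): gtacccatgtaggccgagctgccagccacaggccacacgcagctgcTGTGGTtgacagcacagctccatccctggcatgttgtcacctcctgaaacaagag
Stk38l (chr6:146663089-146663189): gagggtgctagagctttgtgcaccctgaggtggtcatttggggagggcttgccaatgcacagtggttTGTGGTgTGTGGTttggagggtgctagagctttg

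The next 2 windows are the highest-scoring day 0 only regions with an AP-1 or TEAD motif. At Ptn, pleiotrophin, both motifs overlap.
Ptn (chr6:36780583-36780683): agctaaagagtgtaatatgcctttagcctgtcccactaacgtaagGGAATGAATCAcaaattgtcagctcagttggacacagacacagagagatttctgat
AI593442 (chr9:52337709-52337809): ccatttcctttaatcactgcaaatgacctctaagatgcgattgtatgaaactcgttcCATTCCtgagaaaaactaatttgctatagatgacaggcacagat

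The last 4 windows are from regions found at both times. Those nearest Vmn1r40 and Actl7b ranked far lower at day 28 than at day 0, and those nearest Tns1 and Tshz3 far higher. The Tshz3 window lies within 1 kb of a TSS and holds none of the 4 motifs.
Vmn1r40 (chr6:89656716-89656816): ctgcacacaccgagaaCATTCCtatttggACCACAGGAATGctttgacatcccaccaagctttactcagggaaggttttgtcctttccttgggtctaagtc
Actl7b (chr4:56432049-56432149): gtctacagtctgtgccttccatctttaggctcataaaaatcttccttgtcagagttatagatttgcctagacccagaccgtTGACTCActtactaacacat
Tns1 (chr1:73592202-73592302): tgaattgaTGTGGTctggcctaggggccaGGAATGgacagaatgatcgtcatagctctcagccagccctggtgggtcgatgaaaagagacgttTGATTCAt
Tshz3 (chr7:37482291-37482391): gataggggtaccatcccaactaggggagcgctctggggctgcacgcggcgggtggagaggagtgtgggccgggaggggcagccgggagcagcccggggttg

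The 3 classes lay at different distances from genes. Distance was taken from the region centre to the nearest TSS of 51710 protein-coding transcripts of 22359 genes (GENCODE M1). The median distance was 3958 bp (3585 to 4327) for regions at both times, 20578 bp (19994 to 21190) for day 28 only regions and 30765 bp (29534 to 32798) for day 0 only regions. Within 1 kb of a TSS lay 43.3% of the regions at both times (42.6% to 44.0%), 11.6% of the day 28 only regions (11.14% to 12.04%) and 3.98% of the day 0 only regions (3.46% to 4.57%). Of all known bases of the genome 2.30% lie that close, so the shares were 18.8, 5.03 and 1.73 times the genome's. Over 100 kb from a TSS lay 21.4% of the day 0 only regions, 13.7% of the day 28 only regions and 8.27% of those at both times, against 37.7% of the genome.

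Seen from the genes, promoters were the place where a day 0 only region was rarest. Of the 11149 regions within 1 kb of a TSS, 8675 were found at both times (77.8%), 2277 were day 28 only (20.4%) and 197 were day 0 only (1.77%). Beyond 100 kb the day 0 only share was 19.5% and the share at both times 30.6%. A region centre lay within 1 kb of a TSS at both times for 9396 genes (42.0% of 22359), at day 28 alone for 1788 and at day 0 alone for 135. Near the TSS, 63.5% of the centres of regions at both times lay downstream of it (62.5% to 64.6%), as did 60.5% of day 28 only centres (58.4% to 62.5%) and 49.2% of day 0 only centres (42.1% to 56.4%). Farther than 10 kb from a TSS, 46.0% of day 28 only regions lay in introns of coding genes (45.2% to 46.9%), against 37.1% of day 0 only regions (35.5% to 38.7%) and 40.9% of those at both times.

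**Figure D2:**
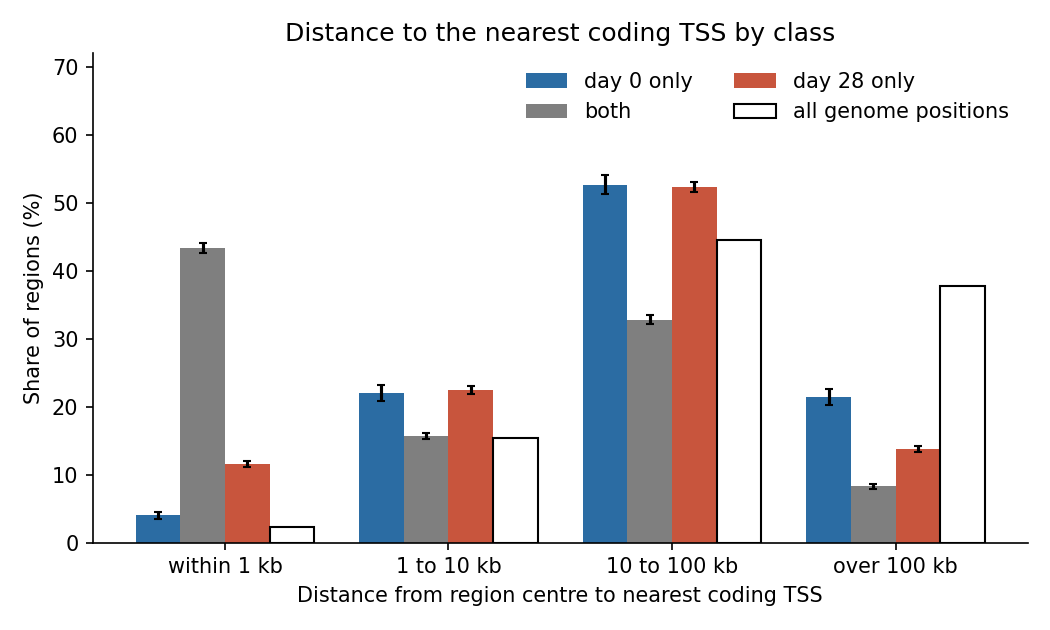
Share of regions (y, %) by distance from the region centre to the nearest coding TSS (x) for day 0 only, both and day 28 only regions, with exact 95% intervals, beside all known genome positions (white). Within 1 kb the bars are 3.98%, 43.3% and 11.6%, against 2.30% of the genome.

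Peaks of single-day regions were narrow. Their median width was 752 bp at day 0 and 650 bp at day 28, against 966 bp and 924 bp for the peaks of regions at both times in the same lists. Single-day peaks also ranked lower, at median percentiles of 24.3 and 31.7 against 57.2 and 69.9. Widths were not compared at equal rank. In the 19054 regions with exactly 1 peak at each time (one-to-one regions), the day 28 peak was 0.949 times as wide as the day 0 peak in the median (0.944 to 0.953), and the peak centres lay a median of 71 bp apart. Width depended on distance to the TSS. Within 1 kb the median width was 1056 bp at day 0 and 1106 bp at day 28 (median ratio 1.01, 1.01 to 1.02), with 52.6% of the peaks wider at day 28. There the downstream edge of the day 28 peak, read in the direction of the gene, reached a median of 20 bp further out than that of the day 0 peak (16 to 23), while the upstream edge stopped 8 bp short of it (5 to 11 bp short). Beyond 100 kb the median width was 863 bp at day 0 and 736 bp at day 28 (ratio 0.871, 0.854 to 0.886). There the upstream edge of the day 28 peak stopped a median of 47 bp short of that of the day 0 peak. Taken separately, the downstream edge stopped a median of 49.5 bp short. The whole day 28 peak lay inside the day 0 peak in 47.8% of these regions. Fragment sizes and read depth, which also set the width of a peak, are not in the lists, and their part was not tested.

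Ranks of the one-to-one regions also differed with distance. Within 1 kb of a TSS the median percentile was 59.9 at day 0 and 81.1 at day 28, and 88.6% of the 8178 regions ranked higher at day 28 (87.8% to 89.2%). The median difference, day 28 minus day 0, was 17.0 percentile points (16.5 to 17.5). At 1 to 10 kb it was 4.80, at 10 to 100 kb 0.0387 (-0.585 to 0.707), and beyond 100 kb it was -4.30 (-5.59 to -2.71). Over all distances 5037 of the 19054 regions (26.4%) ranked at least 25 points higher at day 28 and 1836 (9.64%) at least 25 points lower. Within 1 kb these shares were 34.5% and 1.24%, and beyond 100 kb they were 17.4% and 21.6%. A percentile only places a peak among those of its list, and the many low-scoring day 28 only peaks lift the percentiles of all others at day 28. With lists of equal length the median difference was 6.96 within 1 kb and -10.1 beyond 10 kb (over 10 kb the deposited lists gave -0.718), so promoter regions lay above distal regions either way.

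**Figure D3:**
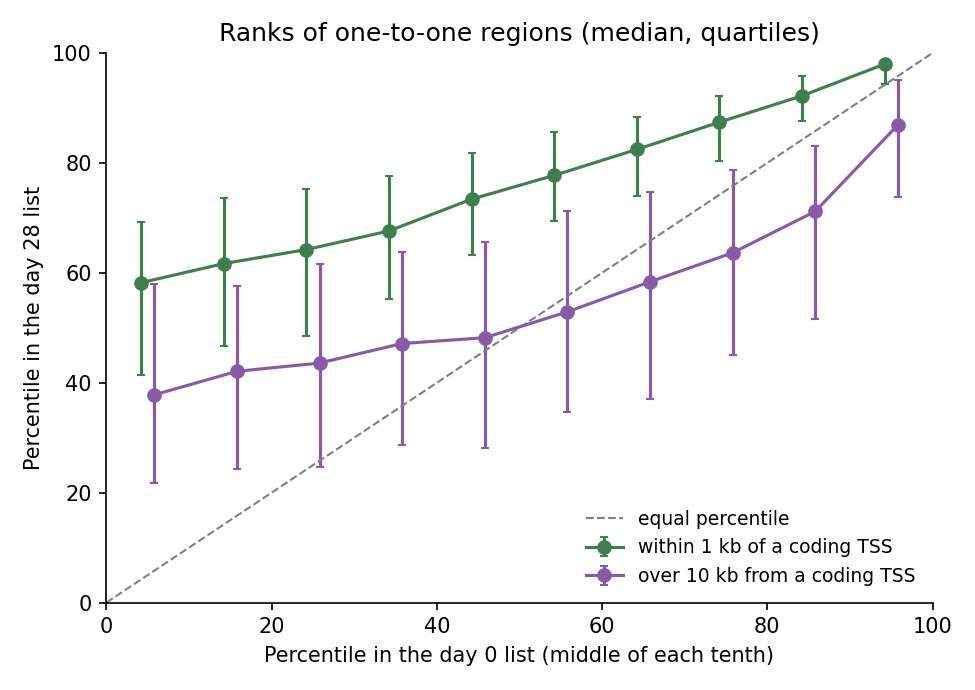
Percentile in the day 28 list (y) against percentile in the day 0 list (x, by deciles) for one-to-one regions within 1 kb of and over 10 kb from a coding TSS. Points are medians, bars reach from the lower to the upper quartile, and the dashed line marks equal percentiles. Regions near a TSS lie above those over 10 kb away in every decile, from a median of 58.2 in the lowest to 98.0 in the highest, while distal regions run from 37.8 to 86.9.

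Peaks in the top of the day 0 list were followed to day 28. Of the 750 one-to-one regions within 1 kb that were in the highest decile of the day 0 list, 666 were also in the highest decile at day 28. Beyond 10 kb this held for 501 of 1183. Scores of 3100 and above were held as ties, since MACS writes 3100 for a p-value of 0 and their order has no meaning. These were 211 peaks at day 0 and 1630 at day 28, which caps the percentile at 99.6 in the day 0 list and at 98.0 in the day 28 list.

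Motif content at the peak centre differed between day 0 only and day 28 only regions. Windows like those shown above were searched for TGTGGT, the Runx core, in either orientation. The core was present in 26.2% of day 28 only regions (25.6% to 26.8%), 20.9% of day 0 only regions (19.8% to 22.1%) and 14.7% of regions at both times (14.2% to 15.2%). In windows of the same length 450 to 550 bp to either side the shares were 7.36%, 7.30% and 6.64%, and 7.08% of all such genome windows hold the core. The low share of regions at both times came from promoters, where 4.13% held the core, fewer than the 5.14% of their flanks. Among regions over 10 kb from a TSS the shares were 29.1% for day 28 only (28.3% to 29.9%), 23.6% for both (22.7% to 24.5%) and 21.2% for day 0 only (19.9% to 22.5%). Over all distances the order of the single-day classes depended on the threshold. With a p-value of 1e-20 in both lists the core was present in 23.6% of day 0 only and 21.6% of day 28 only centres. Distal regions alone were not counted at that threshold. When each distal class was divided into 3 groups by rank, the share was 30.3%, 28.8% and 28.1% for day 28 only, from lowest to highest. For day 0 only it was 18.9%, 20.9% and 23.8%.

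The AP-1 motif TGANTCA, bound by Fos and Jun dimers, ran in the opposite direction. It was present in 11.2% of day 0 only centres (10.3% to 12.1%), 4.86% of those at both times (4.57% to 5.17%) and 3.91% of day 28 only centres (3.65% to 4.19%). Flanks held it in 3.21%, 2.54% and 2.80%, and the genome in 2.96%, so day 0 only centres stood at 3.48 times their flanks and day 28 only centres at 1.40 times. Over 10 kb from a TSS the order was the same, with 11.6%, 7.85% and 4.41%. The TEAD motif GGAATG, bound by the partners of Yap and Taz, was present in 12.2% of distal day 0 only centres (11.1% to 13.3%), 10.3% of those at both times and 7.48% of day 28 only centres (7.03% to 7.95%), against 5.95%, 5.84% and 5.14% of their flanks. The C/EBP motif TTGCNNAA was present in 5.95% of distal day 0 only centres (flanks 3.99%) and 4.28% of day 28 only centres (flanks 3.99%).

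Among distal day 0 only regions, 17.1% held an AP-1 or TEAD motif and no Runx core (15.9% to 18.3%), against 8.51% of distal day 28 only regions (8.03% to 9.00%). The Runx core without either of them was present in 16.1% of the former (14.9% to 17.3%) and 26.02% of the latter (25.3% to 26.8%). About the same share of each class held none of the 3 motifs, 61.8% and 62.4%. Centres of distal day 0 only regions had a median GC content of 47.5%, and those of day 28 only regions 51.5%. Within GC bands the difference was still seen. At 40% to 50% GC the AP-1 motif was present in 11.3% of day 0 only and 5.14% of day 28 only centres, and at 50% to 60% GC in 13.6% and 4.32%. At 60% to 70% GC, with 110 day 0 only regions, the shares were 3.64% (0.9995% to 9.05%) and 3.08% and their intervals overlapped. The Runx core was likewise more frequent in day 28 only centres in the 2 middle bands, with 32.6% against 22.8% and 29.7% against 18.9%.

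The AP-1 and TEAD motifs also differed along the rank difference of one-to-one regions. When distal one-to-one regions were divided into 5 equal groups by the difference in percentile, the AP-1 motif was present in 10.1% of the group with the lowest ranks at day 28 relative to day 0 (8.62% to 11.7%) and in 5.25% of the group with the highest (4.203% to 6.47%), with 9.11%, 7.91% and 7.65% between. The TEAD motif went from 11.9% to 8.92%. The Runx core showed no such order, with 25.4% in the first group and 23.9% in the last. Median GC content also differed, from 48.5% in the first group to 52.5% in the last. So did the median day 0 percentile, which was 74.8 in the first group and 20.9 in the last. The part of GC content and of the day 0 rank was not tested.

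**Figure D4:**
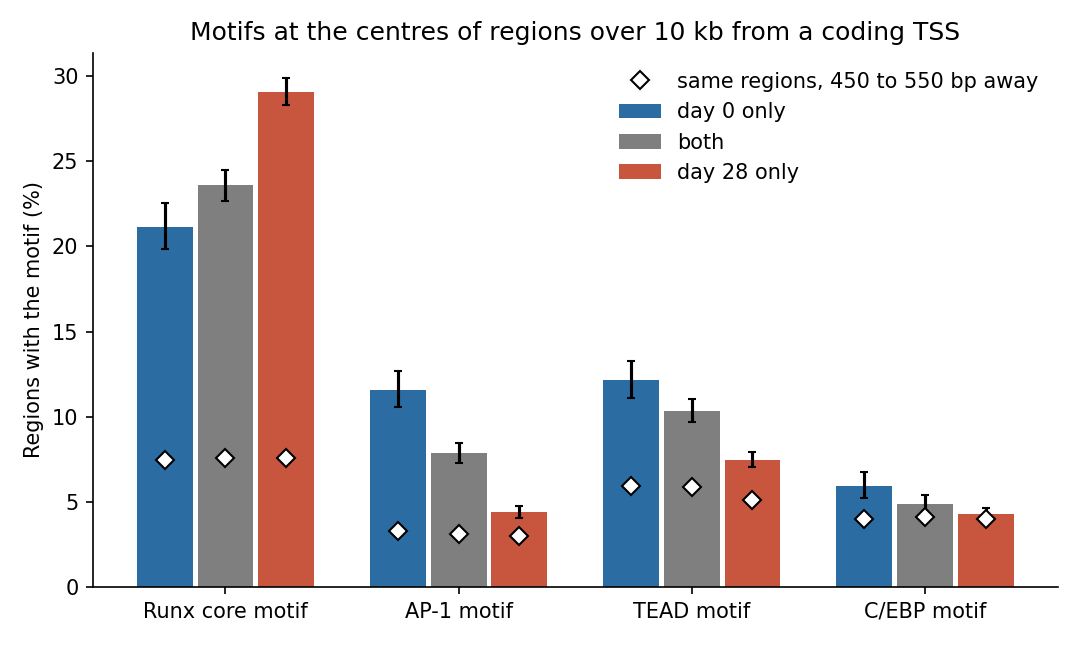
Share of regions over 10 kb from a coding TSS with a motif within 50 bp of the peak centre (y, %) for day 0 only, both and day 28 only regions, with exact 95% intervals, and the share in windows 450 to 550 bp away (diamonds). The Runx core climbs from 21.2% to 29.1% from day 0 only to day 28 only regions, while the AP-1 motif goes from 11.6% to 4.41% and the TEAD motif from 12.2% to 7.48%.

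Promoter regions held other motifs. Of the regions at both times within 1 kb of a TSS, 33.4% held the Sp/KLF motif GGGCGG (flanks 11.5%) and 6.42% the ETS motif CCGGAAG (flanks 1.45%). Day 28 only promoter regions held them in 29.6% (flanks 9.35%) and 3.34% (flanks 1.08%), and the 197 day 0 only promoter regions in 4.57% (2.11% to 8.50%) and 2.03%. Windows of this length centred on all coding TSSs held GGGCGG in 25.1% and CCGGAAG in 5.71%. The NF-Y motif CCAAT was about as frequent in the centres as in the flanks of all 3 classes. The CREB motif TGACGTCA was rare, with 15 day 0 only regions (0.303%), 89 at both times (0.444%) and 31 day 28 only regions (0.158%). Their flanks held it in 0.0101%, 0.137% and 0.0534%, and the genome in 0.0525%. A match of these letters describes the window and does not show which protein was bound.

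Regions were assigned to the coding gene with the nearest TSS. At least 1 day 28 only region lay nearest to 7986 of the 22359 genes (35.7%), and at least 1 day 0 only region to 3156 (14.1%). For 2424 genes (10.8%) every assigned region was day 28 only, and for 513 (2.29%) every one was day 0 only. With lists of equal length these numbers were 1315 and 1278. Genes in wide gene-poor stretches are the nearest gene of more positions, which adds to their counts in each class, and the extent of this was not tested.

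The osteocalcin genes carried regions at day 28 and none at day 0. Bglap2, on the minus strand of chr3, had 2 day 28 only regions, 1 of them (chr3:88182026-88183513) centred 148 bp upstream of its TSS with a score at the ceiling of the day 28 list. Bglap, the neighbouring copy, had 3 day 28 only regions, and that at its TSS (chr3:88188035-88189371) was at the ceiling as well. The copies are nearly identical, so how reads that match both were placed bears on these counts, and this is not given in the sources used here. Ibsp, bone sialoprotein, had 8 regions. Of these 6 were day 28 only, among them the region at the TSS (chr5:104727943-104728626, percentile 57.6 at day 28), and the 2 found at both times lay 43.5 and 47.1 kb upstream.

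Sp7, osterix, which acts downstream of Runx2 in osteoblast commitment, had 3 regions at both times and 3 day 28 only regions. The region 10.6 kb upstream (chr15:102206871-102208835) ranked near the top of each list, at percentile 97.7 at day 0 and at the ceiling at day 28. The region at its TSS was day 28 only and ranked at percentile 41.2. Tnfrsf19, a TNF receptor family member, had 13 day 28 only regions and no region at day 0, spread from 80.4 kb downstream to 38.6 kb upstream of its TSSs, with percentiles from 5.38 to 77.3. Adamts4, an aggrecan-degrading protease, had a region over its first part (chr1:173179878-173182790) at percentile 29.1 at day 0 and at the ceiling at day 28, and 2 day 28 only regions further downstream. Crabp2, a retinoic acid binding protein, had 1 day 0 only, 2 shared and 2 day 28 only regions. Its intronic region (chr3:87753357-87754413) ranked at percentile 82.6 at day 0 and 53.4 at day 28.

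Ezh2, the methyltransferase of histone H3 lysine 27, had a TSS region at both times, at percentile 67.9 at day 0 and 87.4 at day 28. It also had 3 day 28 only regions that abut at gaps of 13 and 63 bp and span 36.7 kb upstream of the gene (chr6:47600450-47637114). The 2 larger ones, 12.9 and 20.3 kb wide, were the only day 28 only peaks over 10 kb. They are almost wholly repeated sequence, since 98.8% and 99.1% of their 20-base words occur in them more than once. The day 28 only count at Ezh2 is therefore uncertain.

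Such internal repeats were more frequent among day 28 only regions. Over 25% of the 20-base words recurred within the region in 547 of 19656 day 28 only regions (2.78%, 2.56% to 3.02%), 14 of 4946 day 0 only regions (0.283%, 0.155% to 0.475%) and 70 of 20027 regions at both times (0.350%). The Runx core was present in 41.7% of the 547 centres (37.5% to 45.9%) and 25.7% of the other day 28 only centres (25.1% to 26.4%). The region nearest Stk38l, shown above, had 91.0% repeated words, and that nearest Eya2 had 49.1%. This measure was added after the Ezh2 values were seen. How the sequencing reads matched to repeats was not tested.

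The Runx2 gene itself carried 29 regions, 8 at both times, 17 day 28 only and 4 day 0 only. Its 2 promoters had regions at both times. The one at the upstream promoter (chr17:44950920-44952840) ranked at percentile 84.7 at day 0 and 88.6 at day 28, and the one at the downstream promoter (chr17:44870480-44873910) at 60.8 and 92.7. The gene body of 318.0 kb held 20 regions, of which all 4 day 0 only regions were a part. In a deep intron the region at chr17:44728690-44730418 ranked at percentile 95.6 at day 0 and 45.3 at day 28. Upstream, from 159 to 259 kb away and within the neighbouring gene Supt3h, lay 7 regions that were all day 28 only. They open the longest uninterrupted run of day 28 only regions in the genome, 28 regions over 365 kb between Runx2 and Cdc5l (chr17:45110483-45475628).

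Cdc5l, a spliceosome component, was the nearest gene of the other regions of that run and had 23 day 28 only regions in all, 2 at both times and none at day 0 alone. The gene with the most day 28 only regions was Tns1, tensin 1, which links integrins to actin, with 38 such regions, 5 at both times and none day 0 only. Prex1, a Rac exchange factor, had 35 with 12 at both times, and Nrp2, a semaphorin and VEGF coreceptor, 26 with 10. Maf, a bZIP transcription factor, had 24, and the kinase gene Nuak1 and the septin gene Sept9 had 23 each. Zmiz1, a transcriptional coactivator, had 22, Bcor, a corepressor, 21, and Gadd45g, a growth arrest and DNA damage gene, 20. Each of these 10 genes also had at least 2 regions at both times, and 5 of them had no day 0 only region. At the TSS of Nrp2 the shared region ranked at percentile 57.9 at day 0 and at the ceiling at day 28. At that of Gadd45g it ranked at 0.249 and 58.5.

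Genes whose regions were all day 28 only, named after their values were seen, included Eya2 with 16, Rtn4rl1 and the Hedgehog effector Gli2 with 14 each, Tnfrsf19 with 13 and Col13a1 with 12. The best of the Gli2 regions was at percentile 74.4 and the best of the Eya2 regions at the ceiling. At the score ceiling 70 day 28 only regions were tied, those at Bglap2 and Bglap among them. Of these 4 lay within 1 kb of a TSS and 50 over 10 kb from one, and 18 held the Runx core at the centre (25.7%, 16.0% to 37.6%, against 26.2% of all day 28 only regions). Over 25% of the 20-base words recurred in 15 of the 70. The 10 with the largest deposited numbers lay nearest Tomm20, Aox3l1, Bcr, Stk38l, Pknox1, Eya2, Rpl11, Ccdc97, Tmem43 and Tesk1, and their order above the other ties has no meaning as a rank.

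Day 0 only regions were most numerous at 2610203C20Rik, with 26, beside 13 at both times and 5 day 28 only. RefSeq lists this name as a synonym of Mir100hg, a long noncoding RNA that hosts microRNAs, so its place among coding genes rests on the annotation used. Its regions span chr9:41183960-41626475, and the day 0 only ones had a median percentile of 25.5. Tcf7l2, a nuclear effector of Wnt signalling, had 15 day 0 only, 19 shared and 17 day 28 only regions. Rnd3 had 13 of each single-day class. Rarb, retinoic acid receptor beta, had 12 day 0 only regions at a median percentile of 47.2, against 2 shared and 4 day 28 only regions, none of which was above percentile 31.0 at day 28. Nr2f2, the nuclear receptor COUP-TFII, had 11. B230118H07Rik had 10, and Impad1, Mettl15, Rnf144b and Cited2, a coactivator of the CBP family of acetyltransferases, had 9 each. All 10 genes also had regions at both times.

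Ankrd1, a cardiac ankyrin repeat protein known as a target of Yap and Tead, had 8 day 0 only regions and no other, the most of any gene with day 0 regions alone (named after its values were seen). They lie from 403 bp to 118 kb upstream of its TSS on chr19, with scores from 135 to 1192 and percentiles from 16.4 to 93.3. The region at the TSS (chr19:36194173-36195301) ranked at percentile 75.3. None of the 8 centres held the AP-1 or the TEAD motif as searched, and 2 held the Runx core. The 10 highest-scoring day 0 only regions lay nearest Tns3, 8030423J24Rik, Gm9747, Camk1g, AI593442, Impad1, Plscr2, Ptn, 4930425F17Rik and Lrrc4c. Of these 5 lay over 100 kb from a TSS, none lay within 1 kb, and 9 lay outside coding genes.

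Among one-to-one regions the 10 with the largest difference towards day 28, from 89.1 to 96.5 percentile points, lay nearest Snapc4, Mtss1l, Rab11fip4, Mtch1, Tshz3, Inpp5d, 1700011E24Rik, Tns1, Il17b and Inpp5k, and 7 of them lay in introns. The region nearest Tns1 (chr1:73591851-73592654, 383 kb from the TSS) held all 3 of the Runx, AP-1 and TEAD motifs. The 10 with the largest difference towards day 0, from -93.5 to -85.6 points, lay nearest Vmn1r40, Actl7b, Mtss1, Rgmb, Gm16508, Depdc1b, Rnf216, Fyb, Olfr279 and Sys1. Of these 8 lay outside coding genes. These regions were at the extremes of each list by choice, with day 0 scores of 782 to 1379 and day 28 scores of 100.8 to 114.2.

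Osteoblast transcription factors nearly all had a day 28 only region, 24 of 28, against 35.7% of all coding genes, and 12 of 28 had a day 0 only region, against 14.1%. The lists were chosen with results of these data known, and their genes were not matched for length or spacing. The Runx family led, with 19 day 28 only regions at Runx3 (9 at both times), 17 at Runx2 and 16 at Runx1 (14 at both times, 4 day 0 only), followed by Zfp521, a zinc finger antagonist of Runx2, with 12. Tcf7, a Wnt effector, had 6 regions that were all day 28 only, the best of them at the ceiling. The median difference of the 18 one-to-one promoters of the list was 4.77 points, with 12 higher at day 28, below the 17.0 of the 7905 genes with such a promoter region. The Id genes, inhibitors of bHLH factors, ranked lower at day 28. Their promoter percentiles were 49.0 and 11.6 for Id1, 63.6 and 44.1 for Id2 and 81.0 and 69.7 for Id3. Lower promoter percentiles were also seen at Fosl1, an AP-1 subunit (86.1 and 61.4), and at Vdr, the vitamin D receptor (90.6 and 79.3), while Runx3 was at the ceiling of both lists.

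Bone matrix genes had 41 day 0 only, 129 shared and 123 day 28 only regions (42.0% day 28 only, 36.3% to 47.9%, against 44.0% of all regions). At least 1 day 0 only region was found at 17 of the 30 genes (56.7%, against 14.1% of all genes) and at least 1 day 28 only region at 25 (83.3%, against 35.7%). Col5a1, a fibrillar collagen, had 12 day 28 only, 14 shared and 3 day 0 only regions, Col12a1 had 9, 7 and 3, and Thbs1, thrombospondin 1, had 9, 12 and 8. Dcn, decorin, had 9 day 28 only and 5 day 0 only regions with 1 shared. Mgp, matrix Gla protein, an inhibitor of calcification, had 3 day 0 only regions and none day 28 only, and its promoter region ranked at percentile 97.8 at day 0 and 75.1 at day 28.

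Genes of phosphate handling and mineralization had 36 day 28 only, 24 shared and 9 day 0 only regions. The shares of 52.2% day 28 only (39.8% to 64.4%) and 13.0% day 0 only (6.14% to 23.3%) had intervals that held the 44.0% and 11.1% of all regions. Alpl, alkaline phosphatase, had 11 day 28 only regions and 3 shared, and Smpd3, a sphingomyelinase needed for mineralization, 7 and 2. Slc20a1, a phosphate transporter, had 4 day 0 only, 3 shared and 2 day 28 only regions. Dmp1, a matrix protein of osteocytes, had a promoter percentile of 82.6 at day 0 and 13.3 at day 28, while its best region was at 88.6 at day 28. Osteocyte markers had 33 day 28 only, 22 shared and 7 day 0 only regions. Their day 28 only share of 53.2% (40.1% to 66.0%) had an interval that held the 44.0% of all regions. Among these markers Gja1, connexin 43, had 8 day 28 only regions and Irx5 had 6. Sost, sclerostin, had 1 day 28 only region at percentile 34.3, and Cd44 had 2 day 0 only, 5 shared and 3 day 28 only regions.

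Antagonists of Wnt and BMP signalling had 81 day 28 only, 56 shared and 17 day 0 only regions (52.6% day 28 only, 44.4% to 60.7%, against 44.0% of all regions), and 17 of the 19 genes had at least 1 day 28 only region (89.5%, against 35.7% of all genes). Bmper had 16 day 28 only and 8 day 0 only regions, and Dkk2, a Wnt inhibitor, 14 and none. Smad6 and Smad7, the inhibitory Smads, had 11 each. Dkk1 had 4 regions, all day 28 only. All 9 one-to-one promoters of the list ranked higher at day 28, by a median of 37.1 points, against 17.0 for all genes with such a region, of which 7037 of 7905 ranked higher. Smad6 stood at percentile 37.5 and 89.7, Nog, noggin, at 18.8 and 65.6, and Sfrp2 at 9.30 and 51.4.

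Proteases of the matrix and their inhibitors had 58 day 28 only, 40 shared and 19 day 0 only regions. Their day 28 only share of 49.6% (40.2% to 59.0%) had an interval that held the 44.0% of all regions. Adamts5, an aggrecanase, had 10 day 28 only and 9 day 0 only regions, Timp3 had 9 and 1, and Adamts2, a procollagen peptidase, 8 and none. Mmp16 had 5 day 0 only, 2 shared and no day 28 only regions, and Mmp13, a collagenase, had 2 regions, both day 28 only. Of the 41 regions of osteoclast signals 10 were day 0 only (24.4%, 12.4% to 40.3%, against 11.1% of all regions) and 11 day 28 only (26.8%, 14.2% to 42.9%, against 44.0%), the extremes of the 14 lists. Ccl2, a monocyte chemokine, and Il34, a ligand of Csf1r, had 3 day 0 only regions each. Tnfrsf11b, osteoprotegerin, had 5 day 28 only and 2 day 0 only regions, and Tnfsf11, RANKL, had 3 and none.

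Cell cycle and DNA replication genes had 80 shared, 57 day 28 only and 16 day 0 only regions (37.3% day 28 only, 29.6% to 45.4%, against 44.0% of all regions), and 19 of 43 genes had a day 28 only region (44.2%, against 35.7% of all genes). Day 28 only regions were most numerous at Myc (13, with 16 shared and 6 day 0 only), Ccnd1, cyclin D1 (10, with 13 and 2), and Cdk1 (5, with 2 shared). A one-to-one promoter region was present at 32 of the 43 genes and ranked higher at day 28 at 28 of them, with a median difference of 12.4 points, beside 7037 of 7905 and 17.0 points over all genes. Aurkb, Cdc20, E2f8 and Mybl2 were the 4 exceptions, and Plk1 and Top2a each had a single region that was day 0 only. Cell cycle inhibitors and growth arrest genes had 67 day 28 only, 54 shared and 15 day 0 only regions. Their day 28 only share of 49.3% (40.6% to 58.0%) had an interval that held the 44.0% of all regions. Gadd45g led with 20 day 28 only regions, and Gadd45a had 10. Gas1 had 7 day 28 only and 6 day 0 only regions and Btg1 7 and 3. Cdkn1c, the inhibitor p57, had 5 regions that were all day 28 only, and Cdkn2b, the inhibitor p15, had 2 that were both day 0 only.

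Genes of other lineages had regions of the same classes. Cartilage genes had 58 day 28 only, 28 shared and 9 day 0 only regions, with 16 day 28 only regions each at Sox5 and Sox9 and 10 at Sox6. Adipocyte genes had 36, 31 and 1, led by Zfp423 with 15 and Cebpb with 5. Muscle genes had 32, 20 and 5, led by Mef2c with 13 and Mef2a with 9. Of 12 blood and endothelial genes, 6 had a region, against 14199 of all 22359 genes, and 4 had a day 28 only region (33.3%, against 35.7%), with 6 at Cdh5, an endothelial cadherin, and 2 at Csf1r. Of all regions 44.0% were day 28 only. The share was 61.1% for cartilage genes (50.5% to 70.9%) and 52.8% for osteoblast transcription factors (46.4% to 59.2%). It was 52.9% for adipocyte genes (40.4% to 65.2%), 56.1% for muscle genes (42.4% to 69.3%) and 45.5% for blood and endothelial genes (24.4% to 67.8%). The intervals of the adipocyte, the muscle and the blood and endothelial lists held the 44.0% of all regions. The day 0 only share of adipocyte genes was 1.47% (0.0372% to 7.92%), against 11.1% of all regions. For the cartilage, the muscle and the blood and endothelial lists the interval of that share held the 11.1%. Of 70 regions at the 8 genes that the study examined further, 48 were day 28 only (68.6%, 56.4% to 79.2%), and that list was chosen by the study on these samples.

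**Figure D5:**
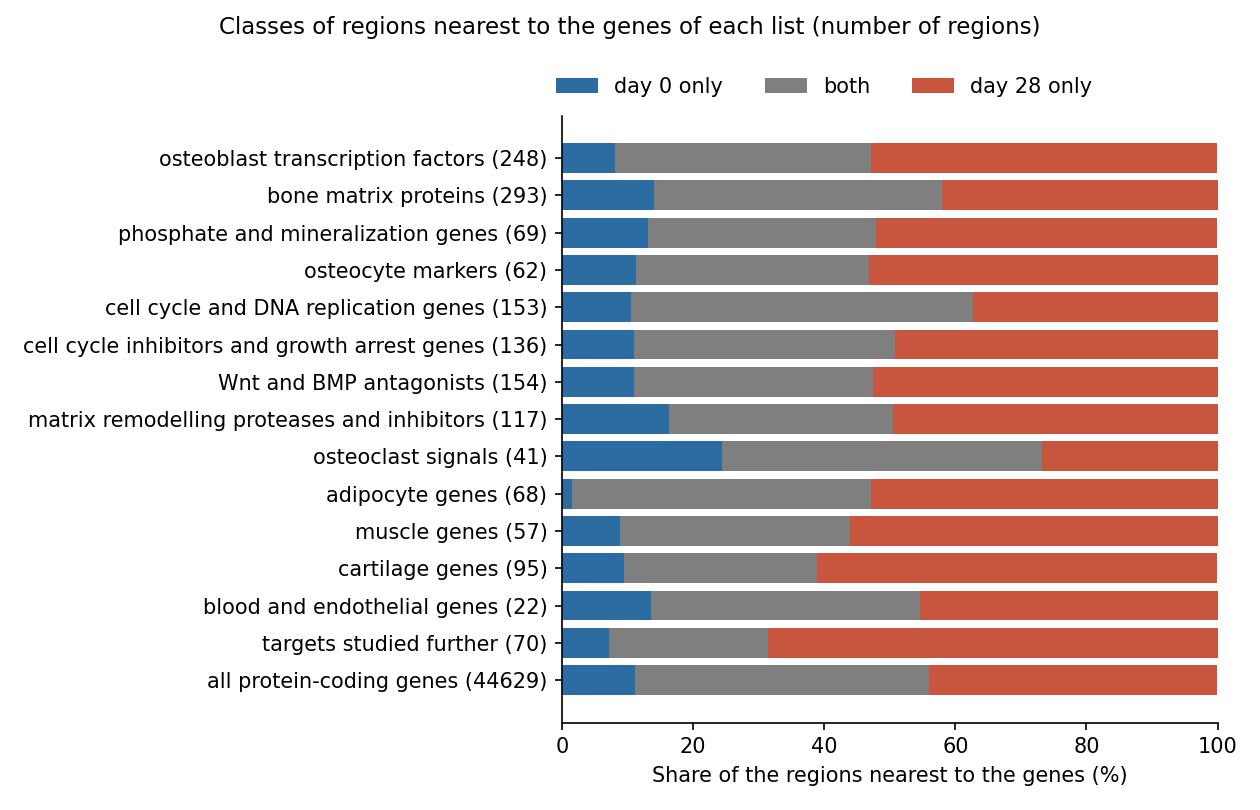
Shares of day 0 only, both and day 28 only regions (x, %) among the regions nearest to the genes of each list, with the number of regions in parentheses and all coding genes at the bottom. The day 28 only share runs from 26.8% for osteoclast signals to 68.6% for the targets studied further, against 44.0% of all regions.

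Single-day regions also came in runs with no region of another class between them. Of day 28 only regions, 99 runs held 10 or more and 738 held 5 or more. After the run upstream of Runx2 the longest were 26 regions over 974 kb around Gli2 and Tcfcp2l1 on chr1 and 25 over 182 kb at Prex1 on chr2. Of day 0 only regions, 6 runs held 10 or more and 40 held 5 or more. The longest was 14 regions over 1823 kb around Kcna4 and Mettl15 on chr2, followed by 13 upstream of Lrrc4c on the same chromosome. A run of 10 on chr19 starts at the TSS of Ankrd1, reaches upstream of that gene and ends with regions nearest Pcgf5. Others lie in the Rhox cluster on chrX, with 11 regions, and the Ly6 cluster on chr15, with 10, where neighbouring genes are similar copies and the placement of reads is uncertain.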

How the data were processed

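Runx2 ChIP-Seq libraries of MC3T3-E1 cells, with inserts of 200 ± 50 bp, were read for 36 bases from one end. Per the submitters' processing notes and the study's methods, CASAVA 1.6 made the base calls, reads of 2 libraries per time point were combined, Bowtie (version 0.12.8) placed them on mm9, and MACS (version 1.4.1) with its default options called peaks over the day 9 input. The authors deposited 1 BED list per time point with a score for each peak, which is -10 log10 of its p-value, and kept peaks that passed 1e-10, so the lowest deposited score was 100. The lists hold no read counts, so depth is unknown from them. Per the study's supplement the day 0 pool was sequenced more deeply than the day 28 pool, and this could not be told apart from the stage.

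All peak ends lay within the NCBIM37 chromosomes. Coordinates are 1-based. Peaks sharing 1 bp were merged, TSSs were those of GENCODE M1 (Ensembl 65) protein-coding transcripts, and percentiles were computed within each list with scores of 3100 and above tied. Motif windows reached 50 bp either side of the centre of the highest-ranked peak, and backgrounds were all genome windows of that length. No test was made between time points. Genes named were the members of 14 lists with the most single-day regions, the 10 genes with the most regions of each single-day class, the nearest genes of the 10 regions of each with the largest deposited scores and of the 10 largest rank differences each way, and the targets examined by the study. Further list members, such as Dmp1, Sost, Id1 and Plk1, fall outside this rule. They were named for their classes or percentiles with the values known. The comparison, the members and the lists were chosen with earlier results of these data known. Alternatives covered the p-value, the definition of overlap, list length, TSS sets and motif settings, and those for chromosomes 2 and 19, tied scores, repeated sequence and the AP-1 motif were added after seeing the data. Python 3.11.15, NumPy 2.4.6, pandas 2.3.3 and SciPy 1.17.1 were used, and the procedures were tested on simulated data.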

Additional observations from a re-analysis of the deposited data

How the results depend on the processing

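No paired analysis was possible because each time point has 1 pooled list and no test was made, and replicates could not be left out for the same reason. The single-day classes depended on the threshold and on list length. With a p-value of 1e-20 in both lists, 2877 regions were day 0 only, 13252 at both and 13695 day 28 only (the last within 1.5 times the 19656 of the deposited lists), and with 1e-50 these were 1283, 5511 and 9935. Asking 1e-20 of the single-day peaks alone left 1614 day 0 only and 9630 day 28 only regions. Linking peaks by centres within 250 bp gave 8331 day 0 only regions, and lists of equal length gave 8241 day 0 only and 8425 day 28 only regions with 16742 at both, and 1315 genes with day 28 regions alone and 1278 with day 0 regions alone.

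The order of the classes within 1 kb of a TSS (both, day 28 only, day 0 only) was the same in all 6 alternatives run. At 1e-20 the shares were 50.0%, 23.4% and 4.69%, with equal lists 49.5%, 15.3% and 7.07%, with CCDS TSSs 40.5%, 9.75% and 2.73%, with TSSs of all biotypes 46.5%, 14.8% and 6.29%, and by the nearest edge 45.1%, 13.1% and 5.32%. The median width ratio was 0.953 at 1e-20, 0.977 with equal lists and 0.964 without chromosomes 2 and 19. The median percentile difference within 1 kb was 22.2 at 1e-20, 16.4 with linked centres, 6.96 with equal lists and 17.99 without chromosomes 2 and 19, and beyond 10 kb it was -2.51 at 1e-20 and -10.1 with equal lists.

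The Runx core was present in 32.4% of day 0 only, 28.1% of shared and 39.9% of day 28 only centres as TGNGGT, in 36.4%, 24.7% and 40.3% within 100 bp, and, for shared and day 28 only regions, in 23.6% and 29.1% beyond 10 kb and 13.2% and 24.6% with equal lists. At 1e-20 and over all distances it was present in 23.6% of day 0 only, 13.2% of shared and 21.6% of day 28 only centres. This turned the order of the single-day classes over all distances. The AP-1 motif kept its order in every alternative. Its shares were 10.1%, 4.06% and 3.57% at 1e-20 and 20.6%, 9.16% and 7.66% within 100 bp, and for shared and day 28 only regions 7.85% and 4.41% beyond 10 kb and 3.95% and 3.16% with equal lists. The cause of these shifts was not tested. In all, 48 of 107 alternative values stayed within the interval, or within 1.5 times the count, of the deposited lists, and 59 did not. Counts, shares and ratios cannot turn sign, so only the median percentile differences could, and none of these did. Depth limits every count of single-day regions, since a peak just under the threshold at one time counts as absent.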

Other observations

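The mix of classes differed between chromosomes. Day 0 only regions made up 16.8% of the regions of chromosome 19 (280 of 1667) and 16.2% of those of chromosome 2 (645 of 3971), against a median of 10.6% over 20 chromosomes and 7.32% on chromosome 17. Day 28 only regions made up 54.8% on chromosome X (420 of 767), 52.7% on chromosome 1 and 52.2% on chromosome 14, against 35.2% on chromosome 19 and 36.2% on chromosome 2. The median percentile difference of one-to-one regions moved with them, from 2.54 points on chromosome 19 and 3.16 on chromosome 2 to 15.8 on chromosome 1 and 16.5 on chromosome 14. Without chromosomes 2 and 19 the AP-1 motif was present in 11.7% of day 0 only and 3.95% of day 28 only centres.

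On a finer scale, 403 windows of 5 Mb held at least 30 regions. The day 0 only share was highest at 105 to 110 Mb of chromosome 2, with 24 of 47 regions (51.1%, against a median of 10.8% over windows), where Kcna4 and Mettl15 lie. The day 28 only share was highest at 45 to 50 Mb of chromosome X, with 30 of 32 regions (93.8%, median 43.3%), and the next 2 windows also lay on chromosome X, at 5 to 10 Mb (80.6%) and 10 to 15 Mb (78.8%), the latter near Bcor.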
